A study of Mus musculus with 20 samples.

Results

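Chromatin immunoprecipitation and sequencing located 459 places in the embryonic mouse forebrain where a peak of the transcription factor NKX2-1 overlapped a peak of LHX6 by at least 1 base and also lay in active chromatin. Active chromatin here means a wild-type region of H3K27ac, the acetylation of active enhancers and promoters, or of H3K4me1, the methylation that marks enhancers. The 459 shared peaks were 8.08% of the 5683 NKX2-1 peaks on chromosomes 1 to 19 and X, and they covered 27.8% of the 1651 LHX6 peaks. Of 1034 NKX2-1 peaks that overlapped LHX6, 520 had wild-type H3K27ac or H3K4me1, and 61 of these that lay in a region of all 9 other lists were left out. The choice used the NKX2-1, LHX6, wild-type H3K27ac and wild-type H3K4me1 lists, so the presence of those peaks is a description of how the set was made. Leaving out the 61 used all lists, of both genotypes. These 61 had every mark in both genotypes, so leaving them out raises the shares of shared peaks that lost a mark. It also lowers the shares with H3K4me3 or H3K27me3. No NKX2-1 peak without LHX6 could be left out this way.

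All tissue was taken at embryonic day 13.5. NKX2-1 and LHX6 were precipitated from basal ganglia of wild-type CD-1 embryos. H3K27ac, H3K4me1, H3K4me3 (a promoter mark) and H3K27me3 (the mark of Polycomb repression) were precipitated from the medial ganglionic eminence (MGE) of C57BL/6 embryos that were Wildtype or Nkx2-1cKO, a conditional knockout called the mutant here. The labels do not name the Cre driver of the knockout or say how many embryos entered a library. Each factor, and each mark in each genotype, has 1 library with a peak list. No difference between genotypes therefore has a replicate error or a test, and the exact 95% Clopper-Pearson intervals in brackets cover counting error only. The factors were mapped in another strain and a wider tissue than the marks, and LHX6 was not mapped in the mutant.

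NKX2-1 is the homeodomain factor that gives the MGE its identity, and without it ventral cells take on features of the neighbouring lateral eminence. It activates Lhx6, which encodes a LIM homeodomain factor kept on in postmitotic MGE neurons that become parvalbumin and somatostatin interneurons of the cortex. NK2 factors bind a core with CACTTGA or CACTCAA, and LIM homeodomain factors bind cores with TAATTA or TAATGA. The factors were precipitated separately from bulk tissue, so overlapping peaks do not show that both sat on the same DNA molecule or in the same cell.

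The 200 bases around the NKX2-1 summit are shown for 12 shared peaks, on the plus strand of build mm9 (NCBIM37). NK2 cores (CACTTGA, read on the other strand as TCAAGTG, or CACTCAA, read there as TTGAGTG) and LIM cores (TAATTA, the same on both strands, or TAATGA, read on the other strand as TCATTA) are in capitals, and a match is a description of the letters, not a binding site. The first 3 are the strongest NKX2-1 peaks of the set, near Phactr1 (intergenic), in an intron of Tle1 and in an intron of 4930506M07Rik. Their windows hold NK2 cores, and the 4930506M07Rik window also holds a LIM core.
Phactr1 (chr13:42752141-42752340): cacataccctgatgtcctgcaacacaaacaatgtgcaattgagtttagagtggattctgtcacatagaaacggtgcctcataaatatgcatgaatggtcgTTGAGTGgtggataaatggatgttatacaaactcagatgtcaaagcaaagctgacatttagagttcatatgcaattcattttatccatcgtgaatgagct
Tle1 (chr4:71843396-71843595): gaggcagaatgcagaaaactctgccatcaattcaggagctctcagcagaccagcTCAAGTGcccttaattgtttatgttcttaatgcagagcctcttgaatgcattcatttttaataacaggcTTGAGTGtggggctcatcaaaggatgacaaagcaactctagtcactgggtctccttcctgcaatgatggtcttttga
4930506M07Rik (chr19:59118064-59118263): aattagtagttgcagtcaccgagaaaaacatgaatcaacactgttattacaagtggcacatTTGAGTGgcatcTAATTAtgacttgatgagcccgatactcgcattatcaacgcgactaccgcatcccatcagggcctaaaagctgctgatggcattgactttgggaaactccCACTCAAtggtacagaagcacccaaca

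The next 3 are shared peaks around Lhx6, of which 1 is right at its transcription start site (TSS). The others lie outside the gene, at 92.4 kb downstream and, counted from that TSS, -99.4 kb. Both are intergenic, and their nearest genes are Ttll11 and Ptgs1. All 3 are shown because H3K27ac spanned less around each of them in the mutant.
Lhx6 (chr2:35959652-35959851): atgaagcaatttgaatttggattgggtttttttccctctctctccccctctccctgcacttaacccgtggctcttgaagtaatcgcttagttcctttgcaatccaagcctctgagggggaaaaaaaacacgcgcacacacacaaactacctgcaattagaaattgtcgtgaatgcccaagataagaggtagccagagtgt
Ttll11 (chr2:35867098-35867297): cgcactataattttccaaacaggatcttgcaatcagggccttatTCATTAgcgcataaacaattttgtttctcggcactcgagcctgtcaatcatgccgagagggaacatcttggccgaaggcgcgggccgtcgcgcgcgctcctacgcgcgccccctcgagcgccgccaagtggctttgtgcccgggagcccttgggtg
Ptgs1 (chr2:36058850-36059049): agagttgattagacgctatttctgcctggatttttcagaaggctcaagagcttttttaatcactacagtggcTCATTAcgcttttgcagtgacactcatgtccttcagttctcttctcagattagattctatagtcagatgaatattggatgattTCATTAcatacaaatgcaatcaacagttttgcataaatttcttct

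A further 3 show the repeated LIM cores of the set. The peaks between Dlx1 and Dlx2 and between Dlx5 and Dlx6 are intergenic and hold 2 LIM cores each. The Gbx1 peak lies in an intron of Agap3 and holds 5 LIM cores.
Dlx1 (chr2:71374108-71374307): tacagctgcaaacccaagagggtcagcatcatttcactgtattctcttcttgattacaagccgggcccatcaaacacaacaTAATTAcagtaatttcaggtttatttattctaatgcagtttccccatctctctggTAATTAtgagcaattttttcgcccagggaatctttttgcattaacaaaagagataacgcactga
Dlx6 (chr6:6819211-6819410): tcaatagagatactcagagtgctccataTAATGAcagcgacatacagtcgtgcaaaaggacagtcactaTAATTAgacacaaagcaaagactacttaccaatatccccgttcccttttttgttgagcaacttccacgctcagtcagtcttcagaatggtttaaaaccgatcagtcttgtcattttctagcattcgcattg
Gbx1 (chr5:24000996-24001195): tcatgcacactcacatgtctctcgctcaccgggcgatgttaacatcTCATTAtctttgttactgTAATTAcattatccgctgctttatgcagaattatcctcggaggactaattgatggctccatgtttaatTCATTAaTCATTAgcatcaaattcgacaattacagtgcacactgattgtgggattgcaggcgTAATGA

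The last 3 are peaks with a wild-type H3K27ac region and none in the mutant. They lie in an intron of Sox6, in an intergenic stretch near Maf and in an intron of Galntl6, and hold 0, 1 and 3 LIM cores.
Sox6 (chr7:122889399-122889598): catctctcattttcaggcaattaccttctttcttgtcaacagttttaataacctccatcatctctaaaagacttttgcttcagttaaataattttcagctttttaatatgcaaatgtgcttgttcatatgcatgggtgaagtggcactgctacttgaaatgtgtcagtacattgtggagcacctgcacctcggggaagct
Maf (chr8:118330658-118330857): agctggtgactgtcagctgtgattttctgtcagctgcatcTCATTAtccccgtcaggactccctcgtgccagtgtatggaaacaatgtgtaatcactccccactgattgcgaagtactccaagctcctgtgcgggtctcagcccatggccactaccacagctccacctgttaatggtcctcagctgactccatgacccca
Galntl6 (chr8:60851293-60851492): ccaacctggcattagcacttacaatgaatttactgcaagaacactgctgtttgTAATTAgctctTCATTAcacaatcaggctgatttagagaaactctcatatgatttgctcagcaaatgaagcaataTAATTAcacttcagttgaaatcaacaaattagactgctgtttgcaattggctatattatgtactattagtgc

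The libraries held 26.8 to 89.1 M tags (M, mega) after removal of duplicates, with the H3K4me3 libraries the shallowest and duplicates at 28.3% and 34% of their tags. Each mark had more regions and more covered length in the mutant than in wild type, from 1.10 times the length for H3K4me1 to 1.32 times for H3K27me3, so a loss at the shared peaks ran against the direction of the lists as a whole. Over the last exon of Nkx2-1 (chr12:57632922-57634767), wild-type H3K27ac covered 95.3%, H3K4me3 100% and H3K27me3 78.4% of the bases, and no mark had a region there in the mutant. Of the shared peaks, 43 lay in stretches crowded with shared peaks (at least 4 within 50 kb, 41 peaks) or had a 32-base summit word with more than 1 copy in the reference (10 peaks). The leading stretches were at Mid1 on chromosome X and at Hjurp and Heatr7b1 on chromosome 1. These 43 hold 27 of the 47 shared peaks with wild-type H3K27me3, and values without them are given where they differ.

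The shared peaks were a median of 439 bases long. Their NKX2-1 fold enrichment, the authors' ratio of ChIP to input at the summit, ran from 2.60 to 21.5 with a median of 5.32. The LHX6 fold of the overlapping peak ran from 2.96 to 20.6 with a median of 5.53. Summits of both factors lay close together, with a median gap of 48 bases and 51.2% of pairs [46.5 to 55.9] within 50 bases. Among 514 overlapping peaks without wild-type H3K27ac or H3K4me1 that share was 46.1% [41.7 to 50.5], so the summits of marked and unmarked pairs were about equally close. Of these 514, 121 had a summit word with more than 1 copy in the reference, beside 10 of the 459 shared peaks. At the edge of the rule, 2 members overlapped LHX6 by under 50 bases, the smallest by 21, and the nearest peaks left outside missed an LHX6 peak by 29 and 41 bases.

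The strongest peaks of each factor were different places. The highest NKX2-1 fold in the set, 21.5, stood near Phactr1, a regulator of actin and of protein phosphatase 1, where LHX6 reached a fold of 3.99. Tle1, which encodes a Groucho corepressor, followed at 15.2 for NKX2-1 and 5.28 for LHX6. The highest LHX6 folds stood near Gm9866 at 20.6, in an intron of Galntl6 at 20.1 and in an intron of Qk, which encodes an RNA-binding protein of neural progenitors and glia, at 18.9. The NKX2-1 folds there were 5.85, 4.57 and 6.54, near the median of the set. Apart from a peak in a crowded stretch near Vmn1r238, the peak near Ptgs1 was the only one among the 12 strongest for both factors, with folds of 13.4 and 15.3.

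Shared peaks lay far from promoters. Within 2.5 kb of a protein-coding TSS were 32 of 459, 6.97% [4.82 to 9.7], while 28.6% of all NKX2-1 peaks and 35.7% [34.2 to 37.2] of the 4069 NKX2-1 peaks in active chromatin without LHX6 did so. Peaks of LHX6 as a whole were alike in this, at 8.12% [6.84 to 9.54], as were the 514 overlapping peaks without wild-type H3K27ac or H3K4me1, at 10.3% [7.82 to 13.3]. These 4069 peaks were chosen on the same wild-type marks and serve as the comparison throughout. Introns held 39% of the shared peaks and intergenic sequence 52.9%. The median distance to a TSS was 62.4 kb. By locus, with members within 50 kb joined, the set made 406 loci, of which 371 held a single peak. Among the 35 loci with several, 4 peaks lay across Auts2, a neurodevelopmental gene, and 3 in Dclk2, which encodes a microtubule-associated kinase. The 3 Dclk2 peaks kept H3K27ac.

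In wild type, 350 shared peaks carried both H3K27ac and H3K4me1, 27 carried H3K27ac alone of these marks and 82 H3K4me1 alone. H3K4me3 lay over 311 of 459 shared peaks (67.8%), beside 74.3% of the comparison peaks. The rule used this mark only to leave out the 61 peaks in all lists. Beyond 2.5 kb of a TSS the shares were 66.5% and 61.9%, so it was about as common at both. The commonest wild-type combination, at 263 peaks, was H3K27ac with H3K4me1 and H3K4me3. H3K27me3 lay over 47 peaks, 10.2%, against 2.9% of the NKX2-1 peaks without LHX6. Outside the crowded and repeated stretches it lay over 20 of 416, 4.81%. With the 61 left-out peaks kept, H3K27me3 lay over 108 and H3K4me3 over 372 of 520 peaks.

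H3K27ac was missing in the mutant from many shared peaks that had it in wild type. A wild-type H3K27ac region lay over 377 shared peaks and a mutant region over 304. A region was called lost where the peak overlapped it in wild type and none in the mutant: 81 of 377 were lost, 21.5% [17.4 to 26], and 8 of 82 peaks without it in wild type had it in the mutant, beside 18.9% of the comparison peaks without it. Because the rule asked for wild-type marks, it favours losses over gains. Among NKX2-1 peaks without LHX6, chosen on the same wild-type marks, 9.55% [8.6 to 10.6] were lost, and among all wild-type H3K27ac regions 19.4%. The 61 left-out peaks kept H3K27ac by definition. With them in the set, 81 of 438 shared peaks lost it, 18.5% [15 to 22.5]. Beyond 2.5 kb of a TSS, with the 61 left out, the shared peaks lost 21.5% [17.4 to 26.2] and the other NKX2-1 peaks 15% [13.5 to 16.5]. This was a smaller gap, with intervals that did not overlap. The shared peaks thus stood above the other NKX2-1 peaks, and near the rate of all regions, whose median fold of 4.59 was below the 8.15 of the regions over shared peaks. With lists trimmed to equal covered length, 26.7% [22.3 to 31.4] and 12.5% [11.4 to 13.6] were lost. Trimming also raised the shared set from 459 to 468, since some left-out peaks lost a mutant region and so entered it. Part of the trimmed shared losses can thus come from this entry, which the comparison peaks do not have. No test of the genotypes is possible.

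H3K4me1 was lost at a smaller share. It lay over 432 shared peaks in wild type and 391 in the mutant, with 51 lost, 11.8% [8.92 to 15.2], beside 11.1% at NKX2-1 peaks without LHX6 and 15.2% of all wild-type regions. Outside crowded and repeated stretches the share was 9.09% [6.45 to 12.4]. With the 61 left-out peaks kept it was 10.3% [7.8 to 13.4]. In losses of this mark the shared peaks could not be set apart from the other NKX2-1 peaks. H3K4me1 was gained at 10 of the 27 shared peaks without it in wild type, 37% [19.4 to 57.6], against 10.4% [8.21 to 13] of the comparison peaks. Beyond 2.5 kb of a TSS those shares were 34.6% [17.2 to 55.7] and 32.4% [22 to 44.3].

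H3K4me3 lay over 311 shared peaks in wild type and 286 in the mutant. Of the wild-type regions 46 were lost, 14.8% [11 to 19.2], against 5.46% [4.68 to 6.33] at NKX2-1 peaks without LHX6 and 3.65% of all wild-type regions. With the 61 left-out peaks kept, the shared loss was 46 of 372, 12.4% [9.2 to 16.1]. All but 3 of the 46 lay beyond 2.5 kb of a TSS, where the shared peaks lost 15.1% [11.2 to 19.8] and the other NKX2-1 peaks 9.81% [8.41 to 11.4]. The gap between the sets was thus smaller away from promoters, and the intervals overlapped. With the mutant list trimmed by −log10 p to the covered length of the wild-type list, the losses came to 60.6% [55 to 66] and 26.7% [25.1 to 28.3]. The size of this loss thus depends on the limit, while its order between the sets was the same. The median H3K4me3 fold was 7.83 (wild type) and 8.94 (mutant) at shared peaks, beside 20 and 26.4 at comparison peaks. Trimming removes weak regions first, and the part of this in the order was not tested. The trimmed lists were not compared beyond 2.5 kb of a TSS. The 60.6% was of 320 peaks and includes peaks that entered the set through the trimming. H3K4me3 appeared in the mutant alone at 21 peaks, 14.2% of those without it in wild type, near the 15.7% of the comparison peaks.

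H3K27me3 was called at more shared peaks in the mutant with the lists as deposited. It lay over 47 shared peaks in wild type and 65 in the mutant, with 3 of 47 lost, beside 11.9% of the comparison peaks, and 21 of 412 gained, 5.1% [3.18 to 7.69]. With the 61 left-out peaks kept, 3 of 108 were lost, 2.78% [0.577 to 7.9]. A gain is a call over the peak, and wild-type H3K27me3 could lie beside the peak. Among NKX2-1 peaks without LHX6 2.02% [1.61 to 2.51] were gained, and of all mutant H3K27me3 regions 46.6% had no wild-type counterpart. The crowded and repeated stretches held all 3 losses. Without them H3K27me3 lay over 20 peaks in wild type and 38 in the mutant, with none of 20 lost [up to 16.8%] and 18 gained, 4.55% [2.72 to 7.09]. With lists trimmed to equal covered length, 18 of 56 were lost, 32.1% [20.3 to 46], beside 25.4% [17.9 to 34.3] of the comparison peaks. Gains were 15 of 412, 3.64%, so no net gain was left in the trimmed set. The rise from 47 to 56 came from left-out peaks that entered after losing a mutant region. Whether the net gain also goes without these peaks was not tested.

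**Figure D1:**
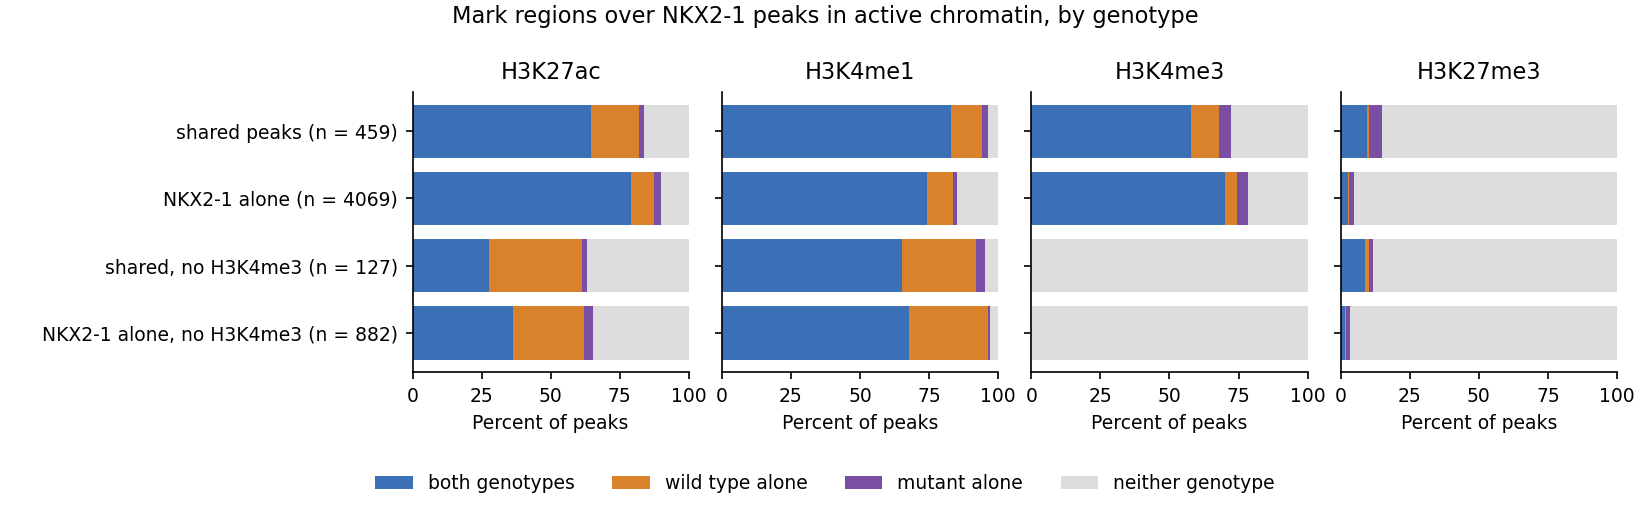
Percent of peaks (x axis) with a region of each mark in both genotypes, wild type alone, the mutant alone or neither, for shared peaks and for NKX2-1 peaks without LHX6 (NKX2-1 alone) in active chromatin, and for the peaks of each set without H3K4me3 in either genotype. The share with H3K27ac in wild type alone is widest in shared peaks without H3K4me3, where 43 of 127 fall in it.

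Peaks without H3K4me3 showed the widest loss. In 127 shared peaks H3K4me3 was absent in both genotypes. Of these, 78 had wild-type H3K27ac and 37 had it in the mutant, with 43 lost, 55.1% [43.4 to 66.4]. The comparison peaks without H3K4me3 lost 41.7% [37.6 to 46], and all wild-type H3K27ac regions without H3K4me3 40.3%. H3K4me1 was lost at 34 of 117, 29.1%, beside 29.8% and 27.1%. The intervals for H3K27ac overlapped, so the excess over other NKX2-1 peaks without H3K4me3 was not separated from counting error. In the 332 shared peaks with H3K4me3 in at least 1 genotype, 12.7% [9.15 to 17] lost H3K27ac, against 3.69% [3.04 to 4.42]. Within 2.5 kb of a TSS lay 8.13% of these 332, beside 35.7% of all comparison peaks and 4.99% of those without H3K4me3. Near a TSS the comparison peaks lost H3K27ac at 1.34% [0.81 to 2.09] and the shared peaks at 5 of 24. The part of promoters in this gap was not tested. The 61 left-out peaks would all fall in this group and count as kept.

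The strength of the wild-type region moved with the loss. The median wild-type H3K27ac fold was 5.74 at peaks that lost it and 9.53 at peaks that kept it. With both sets split at the same folds, shared peaks with a fold of 2.76 to 6.89 lost H3K27ac at 44.4% [35.4 to 53.5] and the comparison peaks at 29.3% [26.6 to 32.1]. From 6.89 to 10.2 the shares were 19.8% [13.3 to 27.9] and 1.94% [1.23 to 2.9]. Above that, 1 of 127 shared peaks and 6 of 1301 comparison peaks lost it. Over all peaks the gap between the sets was thus widest at middling strength, but in peaks with H3K4me3 it was widest at the lowest folds. There, folds of 3.45 to 7.27 gave 29% [20.4 to 38.9] of 100 against 11.8% [9.58 to 14.3] of 764. Folds of 7.27 to 11.1 gave 9.09% [4.24 to 16.6] of 99 against 0.656% [0.284 to 1.29] of 1220. Above that, 0 of 100 shared and 2 of 991 comparison peaks lost it. In peaks without H3K4me3, folds of 5.28 to 7.35 gave 68% [46.5 to 85.1] of 25 against 31.1% [24 to 38.8] of 161. Below that range the shares were 72% [50.6 to 87.9] of 25 and 65.6% [59.5 to 71.4] of 256, and above it 28.6% [13.2 to 48.7] of 28 and 8.73% [4.44 to 15.1] of 126, with intervals that overlapped in both. These splits were chosen after the values were seen. They were not limited to peaks beyond 2.5 kb of a TSS, so the part of promoters in them was not tested.

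**Figure D2:**
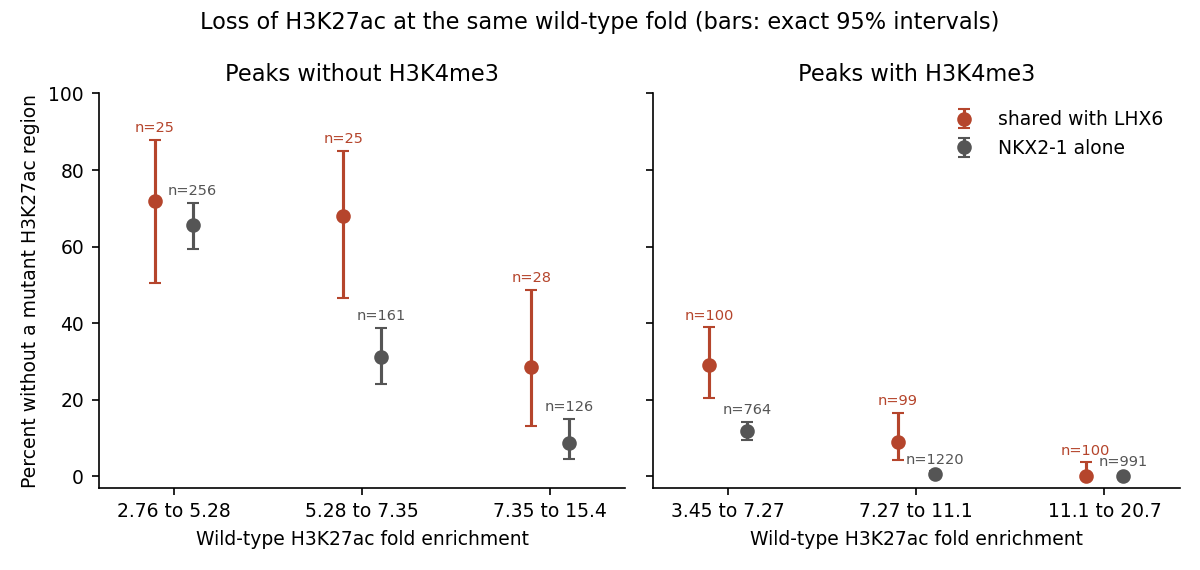
Percent of peaks with wild-type H3K27ac that had no mutant region (y axis) by wild-type fold enrichment (x axis), for peaks without and with H3K4me3; points are shares, bars are exact 95% intervals and n is the number of peaks. In the middle range of peaks without H3K4me3, 68% of 25 shared peaks and 31.1% of 161 other NKX2-1 peaks had lost it.

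The length that called H3K27ac regions covered around the peaks showed the same direction. It sums the same called regions, from the untrimmed lists, so it is not free of the calling limit. It also includes the wild-type regions over the peaks that the rule used. Within 5 kb of the summit, H3K27ac covered a mean of 2.91 kb (wild type) and 2.14 kb (mutant), a ratio of 0.736. The mutant length was lower at 319 shared peaks (69.5%), higher at 95 and equal at 45. At NKX2-1 peaks without LHX6 it was lower at 47.6% and higher at 45.4%, with a ratio of 0.944. Among peaks without H3K4me3 it was lower at 67.7% of shared and 55.9% of comparison peaks, a smaller gap, and higher at 10.2% and 20.4%. The ratios there were 0.504 and 0.726. Restricted to peaks with the mark in wild type, it was lower at 295 of 377 shared peaks, 78.2%, beside 45.8% of all wild-type H3K27ac regions, for which the ratio was 1. In bulk tissue, fewer cells that carry a mark and less of the mark per cell cannot be told apart.

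The other marks covered lengths nearer to parity. H3K4me1 spanned a mean of 2.47 kb (wild type) and 2.19 kb (mutant), a ratio of 0.886, and was lower at 65.1% of shared peaks, beside 58.5% of the comparison peaks. H3K4me3 covered 1.12 and 1.15 kb. At the 311 peaks with wild-type H3K4me3 its length was lower at 51.4%, beside 14.3% of all wild-type H3K4me3 regions, most of which were longer in the mutant. H3K27me3 covered 0.838 and 1.06 kb, a ratio of 1.27, close to the ratio of its whole lists.

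**Figure D3:**
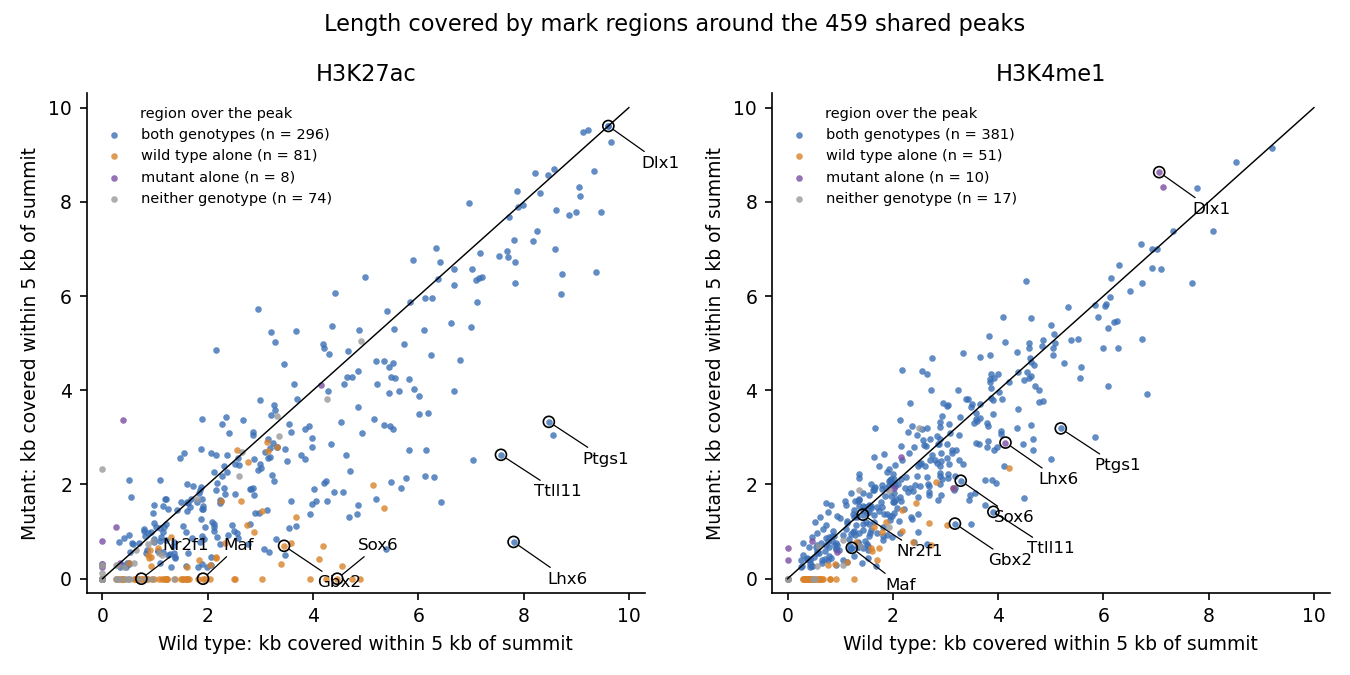
Kilobases covered by H3K27ac (left) and H3K4me1 (right) regions within 5 kb of each of the 459 shared summits, in wild type (x axis) and the mutant (y axis), coloured by the regions over the peak itself; the line marks equal lengths and circled peaks carry the name of a listed or nearest gene. H3K27ac lies below the line at 319 peaks, with the Lhx6 peak at 7.81 wild-type and 0.781 mutant kb.

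Most peaks that lost H3K27ac kept another mark. Of the 81 peaks that lost H3K27ac, 52 kept H3K4me1, 18 lost it and 11 had none in wild type. H3K27me3 appeared in the mutant alone at 4 of the 81, and none of the 4 marks was left at 21, 25.9%. The nearest mutant H3K27ac region lay a median of 15.6 kb from the lost peaks, within 1 kb at 15 and beyond 10 kb at 43, so most losses were not small shifts of a boundary. In the whole set, 277 peaks (60.3%) had the same combination of the 4 marks in both genotypes, 201 of them with H3K27ac, H3K4me1 and H3K4me3. In all, no mark was left in the mutant at 35 peaks, 7.63%.

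Losses of H3K27ac and gains of H3K27me3 were then set beside the strength of factor binding. In the strongest, middle and weakest groups by the −log10 p of NKX2-1, 153 peaks each, H3K27ac was lost at 17.5%, 23.8% and 23.1%, with overlapping intervals. By LHX6 the shares were 21.1%, 24.4% and 18.7%. H3K27me3 was gained at 14 of 133 of the strongest NKX2-1 group, 10.5% [5.88 to 17], at 2.88% [0.79 to 7.2] of the middle and at 2.14% [0.444 to 6.13] of the weakest group, with intervals that overlapped. Of the 21 gains, 19 lay over peaks with mutant H3K4me3 and 14 over peaks with mutant H3K27ac.

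LIM cores were common in the shared peaks. A LIM core lay in the 200 bases around 51.2% [46.5 to 55.9] of the shared summits, beside 25.7% of all NKX2-1 windows, 24.6% [23.2 to 25.9] of the NKX2-1 peaks without LHX6 and 18.1% [14.9 to 21.7] of overlapping peaks without wild-type H3K27ac or H3K4me1. The unmarked overlapping peaks hold more repeated sequence, with 121 of 514 summit words in more than 1 copy, and its part was not tested. Windows 1 kb to each side of the shared summits held a LIM core at 16.3%. The median GC content of the windows was 43% in shared peaks and 52% in NKX2-1 peaks without LHX6, and its part in the difference was not tested. Among peaks without H3K4me3 the shares were 46.5% [37.6 to 55.5] and 36.5% [33.3 to 39.8], with intervals that overlapped. In shared peaks with a LIM core within 200 bases, the median distance of the core was 52 bases from the NKX2-1 summit and 38 from the LHX6 summit.

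NK2 cores did not follow. They lay in 15.3% [12.1 to 18.9] of shared windows, above the 4.47% of the side windows but below the 21.2% [19.9 to 22.5] of NKX2-1 peaks without LHX6 and the 21.4% of all NKX2-1 peaks. Among peaks without H3K4me3 the shares were 18.1% [11.8 to 25.9] and 30.8% [27.8 to 34]. Both cores occurred together in 6.54% of shared windows and neither in 40.1%, so many shared peaks, the Lhx6 and Sox6 windows above among them, hold neither spelling. The LIM words are shorter than the NK2 words and commoner in the side windows, so the share of each is read against those windows.

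Cores of other factor families were also counted on both strands. The E-box CAGCTG, bound by basic helix-loop-helix factors, lay in 28.5% [24.4 to 32.9] of shared windows and 10.5% of their side windows, beside 23.4% of all NKX2-1 windows. The SOX cores ACAATG and ACAAAG lay in 34.4%, beside 26.9% at the sides and 26.2% overall. The MEIS core TGACAG was found in 21.6%, beside 13.2% and 17.8%, and in 6 shared windows it overlapped a LIM core. The NFI site TTGGCA was in 13.3%, beside 11.3% and 14%, and so stood near both.

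**Figure D4:**
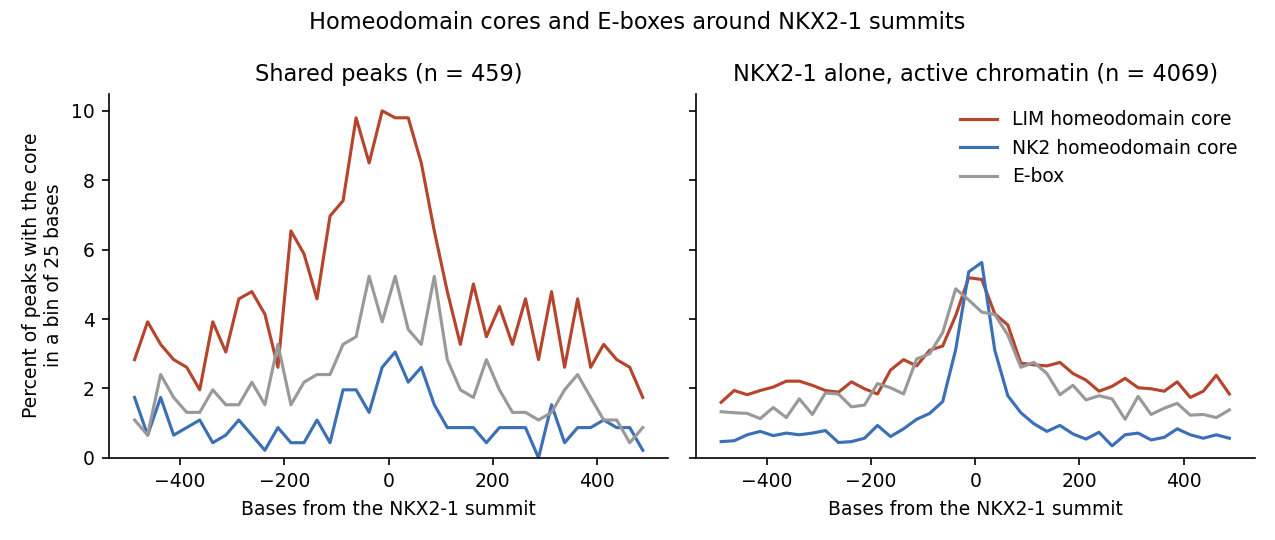
Percent of peaks with a LIM core, NK2 core or E-box in each bin of 25 bases (y axis) by distance from the NKX2-1 summit (x axis), for 459 shared peaks and for 4069 NKX2-1 peaks in active chromatin without LHX6. The LIM core reaches 10% of shared peaks in the bins beside the summit and 5.19% of the others, while the NK2 core reaches 3.05% and 5.63%.

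Peaks with and without a LIM core lost H3K27ac about equally, at 19.9% [14.6 to 26.1] and 23.3% [17.3 to 30.2]. H3K4me1 was lost at 7.11% [4.12 to 11.3] of those with the core and 16.9% [12.1 to 22.7] of those without. Of the crowded and repeated peaks 1 held the core. These peaks lost H3K4me1 at 15 of 36, and their part in this difference was not tested.

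The genes near shared peaks were counted for 14 lists, by a shared peak within 100 kb of a TSS. This held for 526 of 22350 protein-coding genes, 2.35%, and for 14 of 37 genes (37.8%) on the list of MGE and ventral telencephalic transcription factors. For comparison, NKX2-1 peaks without LHX6 lay within that distance of 37.2% of all genes and 78.4% of this list. Of the cortical interneuron list 6 of 26 had a shared peak, of the Groucho corepressors and LIM cofactors 4 of 11, of the actin and Rac regulators 4 of 21, of the cholinergic neuron list 2 of 10 and of the LGE and CGE list 2 of 24. Progenitor and Notch genes had 1 of 20 (Nfib) and the endothelial list 1 of 12 (Pecam1). No shared peak lay near the lists of migration and axon guidance (27 genes), SHH pathway (12), pallial neurons (16), oligodendrocyte lineage (9), microglia (5) and housekeeping (16). The counts are not separate results, since Lmo1, Lmo3, Sox6, Maf, Gbx1 and Gbx2 each stand on more than 1 list. A single peak can also count for several genes, as for Dlx5 and Dlx6. All lists together had 28 genes with a shared peak. The lists were drawn up with earlier results of these data known, so the counts are no test, and distance does not assign a peak to a gene.

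Lhx6 had 3 shared peaks within 100 kb, 1 at 0.172 kb upstream of its nearest annotated TSS. The others lay at 92.4 kb downstream and, counted from that TSS, -99.4 kb. The annotated gene begins at -1.348 kb from that TSS, so the first peak lies inside it. At the TSS peak, H3K27ac spanned 7.81 kb (wild type) and 0.781 kb (mutant) within 5 kb, and in the mutant short regions remained at the TSS and upstream of it. H3K4me1 had a region over that peak in the mutant alone, and H3K4me3 and H3K27me3 regions lay over it in both genotypes. Around the far peak near Ttll11, H3K27ac spanned 7.57 kb (wild type) and 2.63 kb (mutant). Around the peak near Ptgs1 it covered 8.48 and 3.33 kb. Both far peaks had H3K27ac, H3K4me1 and H3K4me3 regions over all or part of the peak in both genotypes. Over the peaks themselves H3K27me3 was called in the mutant alone, but wild-type H3K27me3 lay nearby. Within 5 kb it covered 0.631 kb (wild type) and 1.64 kb (mutant) near Ttll11, and 2.74 and 5.71 kb near Ptgs1. By the rule of 1 base, all 3 peaks thus kept an H3K27ac region in the mutant, within a shorter acetylated stretch. At the TSS peak only the edge overlapped a mutant region, the summit lay outside it, and the fold was 14.8 in wild type and 3.64 in the mutant.

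**Figure D5:**
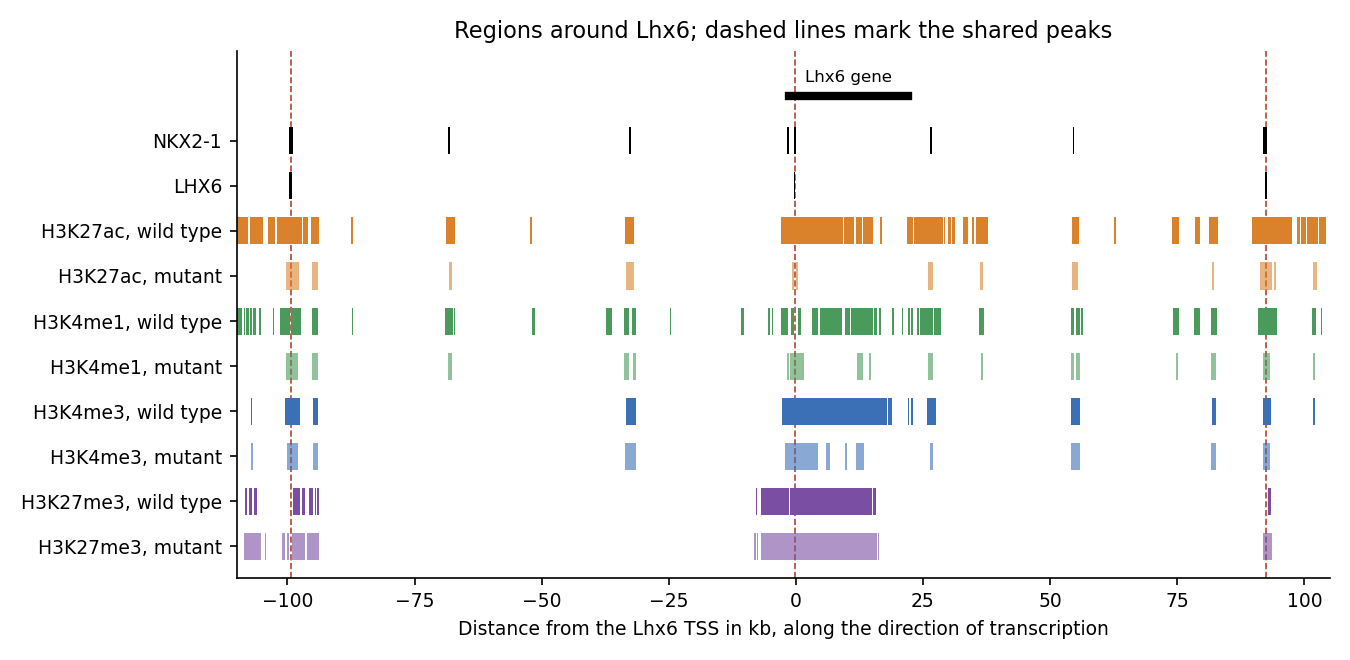
Peaks and mark regions (bars, to scale) by distance in kb from the Lhx6 TSS along the direction of transcription (x axis), with 1 row for each factor and for each mark in each genotype; paler bars are the mutant and dashed lines the 3 shared peaks. Around each shared peak H3K27ac covers less in the mutant, with 7.81 kb (wild type) and 0.781 kb (mutant) within 5 kb of the peak at the TSS.

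The Dlx genes, homeobox genes that drive GABAergic fate throughout the ganglionic eminences, kept their acetylation. The 2 shared peaks between Dlx1 and Dlx2 lay 5.37 kb from Dlx1 and 7.92 kb from Dlx2, and the peak between Dlx5 and Dlx6 lay 5.51 kb from Dlx6. Within 5 kb of each of the Dlx1 and Dlx2 peaks H3K27ac spanned 9.61 kb in both genotypes, and at Dlx6 it spanned 9.23 kb (wild type) and 9.52 kb (mutant). H3K4me3 and H3K27me3 regions lay over all 3 peaks in both genotypes, and H3K4me1 over the Dlx1 and Dlx2 peaks in the mutant alone.

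H3K27ac was also present in both genotypes near most other listed transcription factors and cofactors. Among these were Lmo3 and Lmo1, which encode LIM-only cofactors, Npas1, a bHLH-PAS factor of interneurons, the homeobox genes Gbx1 and Otx2, and the Groucho genes Tle1 and Tle3. The Npas1 peak gained H3K27me3, with a mutant fold of 4.83, and the Tle3 peak had H3K4me3 in wild type alone. At Gbx1, with its 5 LIM cores, H3K27ac spanned 4.4 kb (wild type) and 1.84 kb (mutant). Among actin and Rac regulators, the peaks nearest to Tiam2, Elmo1, Phactr1 and Srgap2 had H3K27ac and H3K4me1 in both genotypes. At Phactr1, the strongest NKX2-1 peak of the set, H3K27me3 was called over the peak itself in the mutant alone with a fold of 12. Within 5 kb of its summit H3K27me3 already covered 7.2 kb in wild type, beside 8.72 kb in the mutant. Of the interneuron list, the peaks near Dlgap1, a postsynaptic scaffold, Arl4d, a small GTPase, and Slc32a1, the vesicular GABA transporter, had H3K27ac, H3K4me1 and H3K4me3 in both genotypes. The peak near Nxph1, a neurexin ligand, had H3K4me1 alone in both.

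A smaller group lost H3K27ac at the shared peak. Sox6, needed for the positioning and maturation of MGE interneurons, had 1 such peak 78.7 kb from a TSS in an intron, where wild-type H3K27ac spanned 4.46 kb and the mutant had no region within 5 kb. Maf, which promotes the somatostatin interneuron fate, had 1 at 99.1 kb, with 1.91 kb in wild type and 0 in the mutant. At both peaks H3K4me1 was called in both genotypes. The shared peak nearest to Gbx2, a homeobox gene of MGE-derived cholinergic neurons, lay 76 kb away in an intron of Asb18 and also had H3K27ac in wild type alone. Of the LGE and CGE list, Foxp2, a factor of striatal neurons, at 81.3 kb, and Nr2f1, a nuclear receptor enriched in the caudal eminence, at 90.1 kb, did so too, with wild-type folds of 2.76 and 4.48, below the median of 8.15 over shared peaks.

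The strongest NKX2-1 peaks with H3K27ac in wild type alone, leaving the crowded stretch near Vmn1r238 aside, stood near 4930591A17Rik, Ola1, Tnrc6c, Nr2f1 (in an intron of Fam172a) and Stmn2. At Tnrc6c, which encodes a scaffold of microRNA silencing, H3K27ac spanned 5.14 kb (wild type) and 1.98 kb (mutant), and H3K4me1 and H3K4me3 were also in wild type alone. At Ola1, an ATPase gene, H3K4me1 and H3K4me3 were likewise in wild type alone. At Stmn2, which encodes a microtubule regulator of growing neurons, H3K4me1, H3K4me3 and H3K27me3 were kept. Peaks with H3K27ac in the mutant alone numbered 8, the strongest near Dpy19l1, Mid1, Gm10764, Sgcd, Tle4 and Nubpl. Their mutant folds ran up to 6.56 among these 6. The rule itself required wild-type H3K4me1 at each, and H3K4me1 was called at each in the mutant as well.

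Strong NKX2-1 binding also occurred with no H3K27ac region in either genotype, at peaks admitted by H3K4me1. The strongest of these stood near Gm5356, Atp5g3, Fam170a, Shox2 and Rgs6, and near Gm10716 in a crowded stretch. Near Gm5356 and Shox2, a homeobox gene, H3K27me3 was called over the peak in the mutant alone, with folds of 3.59 and 9.67. Near Atp5g3 the window held 3 LIM cores, with an NKX2-1 fold of 12.4 and H3K4me1 in both genotypes. H3K27me3 over the peak in the mutant alone was further seen at D130058E05Rik, Ttll11 and Ptgs1 among the strongest peaks. Within 5 kb of the D130058E05Rik summit it already covered 6.73 kb in wild type, beside 8.46 kb in the mutant. H3K27me3 in wild type alone was seen at 3 peaks, near Gm17379, Hjurp and Heatr7b1, all in crowded or repeated stretches.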

How the data were processed

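NKX2-1 and LHX6 were profiled in wild-type CD-1 basal ganglia and 4 histone marks in wild-type or mutant C57BL/6 MGE. Peak lists of 10 of the 20 libraries entered, grouped by antibody and genotype, and 10 input and IgG libraries without one were not analysed here. The submitters' processing notes name BWA 0.6.2, MACS2 2.1.0, bcl2fastq 1.8.4, CASAVA 1.8.2 and build mm9. Per the file headers, regions were called with MACS at a p-value of 1e-05 against input, with tags extended to 250 bases. The deposited columns are the pileup (a signal), the −log10 p-value, a −log10 q-value (not used, since the headers say it was not calculated) and the authors' fold enrichment, a ratio, used only to describe or rank peaks within a list. Depth is the authors' count of tags per the file headers. Regions of different libraries were called separately and are compared by presence and covered length.

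Rows of 1 region (same start, same end) were joined, with the values of the strongest summit. Overlaps, covered lengths, TSS distances (GENCODE vM1, 22350 protein-coding genes) and motif words came from scripts in Python 3.11.15 (pandas 2.3.3, numpy 2.4.6, pysam 0.24.0, samtools 1.23.1, scipy 1.17.1 and numba 0.67.0), and figures from matplotlib 3.10.9. They were checked on simulated regions and sequences and, for 9 overlap counts, against bedtools 2.31.1, with 0 mismatches. Coordinates count from 1. Members and lists were chosen with earlier results of these data known. Of 230 listed symbols 226 matched, to 228 gene IDs. Regions were named by a rule: the 12 highest −log10 p of each factor, the 6 highest by NKX2-1 in each H3K27ac class and each class of changed H3K27me3, up to 8 genes nearest to a peak per list, and the 6 genes with most peaks. Of the last, all in crowded stretches, those with the most are named by their stretch. Auts2 and Dclk2 were added after their counts were seen. Alternatives were other overlaps, distances, windows and thresholds. With 1 library per group no test between genotypes was made.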

Additional observations from a re-analysis of the deposited data

How the results depend on the processing

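No paired analysis was possible because the numbered inputs of each genotype have no peak list and each mark has 1 library per genotype. Of 77 values recomputed under alternatives, 56 stayed within the counting interval of the reported value, or within 1.5 times for counts. With each mark's lists trimmed to equal covered length, H3K27ac was lost at 26.7%, H3K4me1 at 15.6%, H3K4me3 at 60.6% and H3K27me3 at 32.1%. The trimmed mutant lists hold fewer weak regions by construction. The set also grew from 459 to 468 with left-out peaks that lost a mutant region through the trimming, which adds losses. Lost H3K27ac stood at 16.3% when an overlap of at least 50% of the shorter region was asked for. With marks at a −log10 p of at least 10, lost H3K4me1 stood at 15.6%. In the 127 peaks without H3K4me3, lost H3K27ac stood at 55.1%, lost H3K4me1 at 29.1%, gained H3K27me3 at 1.75% and LIM cores at 46.5%, and no lost H3K4me3 can be given there. The LIM core was in 30.9% of windows of 100 bases and 65.6% of 400, the NK2 core in 8.5% and 19.6%, and in 12% around LHX6 summits. Listed genes near a shared peak numbered 28, and 17 within 50 kb or 45 within 200 kb. Added after seeing the data were a set beyond 2.5 kb of a TSS and a set without crowded or repeated peaks. The set beyond 2.5 kb moved no value past the limits above. The set without crowded or repeated peaks had 0% of H3K27me3 lost (0 of 20 [0 to 16.8]), 56.2% with a LIM core and 4.57% near a TSS. A distance of 1 kb, summits inside regions and stricter factor peaks moved no value past these limits. Causes were not tested. The lack of replicates limits all differences between genotypes, and the H3K4me3 libraries were the shallowest.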
